A study of Mus musculus with 15 samples.

Results

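The genes described here are 46 genes of G2 and mitosis, chosen by name: kinases and cyclins of mitotic entry, the Aurora kinases with their partners, the spindle checkpoint, kinetochore proteins, spindle motors, proteins of the midzone and cytokinesis, regulators of anaphase, condensin and topoisomerase, a centriole kinase and the proliferation antigen Ki-67. A gene was measured through probe sets that carry its symbol alone, and the probe set with the highest mean over the 15 arrays stood for it. By this rule 45 of the 46 were measured among 19937 genes. Ccnb1, the cyclin B1 gene, has no probe set of a single symbol in the annotation used and is not analysed here. Of the 45, 44 had 1 probe set, and Top2a had 2.

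The study profiled 2 myeloid progenitor populations, pre-granulocyte-macrophage progenitors (preGM) and granulocyte-macrophage progenitors (GMP), sorted from mouse bone marrow, on Affymetrix Mouse Gene 1.0 ST arrays. Mice were female, on C57BL/6, and were taken 3 weeks after conditional knockout. Their age is not given in the sources used here. There were 5 groups of 3 arrays. The preGM groups were cebpa +/+ (control, with the driver written Mx1Ce in the label) and cebpa fl/p30; Mx1Cre. The GMP groups were cebpa fl/+; Mx1Cre (control), cebpa fl/BRM2; Mx1Cre and cebpa fl/p30; Mx1Cre. Cebpa encodes C/EBPα, a transcription factor needed to form GMP, and fl is its conditional allele. The p30 allele makes only the short isoform of the protein, and BRM2 is known as a basic region mutation that weakens repression of E2F factors by C/EBPα. All groups carry the Mx1Cre driver, whose Mx1 promoter responds to interferon and is active in many blood cells and in other tissues. The share of sorted cells that had recombined is not given. The control genotype differs between the populations. Stage and control genotype therefore cannot be told apart in a comparison of the controls, or of the fl/p30 differences between the populations. The animal numbers in the labels differ between arrays except for cebpa fl/p30, where the same 3 animals gave the preGM and the GMP array of replicates 1, 2 and 3. The animal of replicate 1 is called the first fl/p30 animal below.

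Entry into mitosis is driven by Cdk1 bound to cyclins A and B, and is followed by chromosome condensation, spindle assembly, attachment of kinetochores, a checkpoint that holds anaphase until attachment is complete, and cytokinesis. The transcripts of most of these genes accumulate late in the cell cycle, through the MuvB complex with B-Myb and FoxM1, and are kept low in resting cells by the DREAM complex, which binds CHR elements in their promoters, often near CCAAT boxes bound by NF-Y. Their summed level in a sample is known to follow how many of its cells are between late S phase and division. In bulk RNA, fewer cells in these phases and less RNA per cell cannot be told apart.

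The promoters of these genes share sequence features that the choice of genes did not use. RefSeq (GRCm38.p6) gave 41 promoters for 38 of the 46 genes, each from 250 bases before to 50 bases after the start. Ccna2, Cdc25c, Foxm1, Tpx2, Aurkb, Incenp, Kif20a and Smc4 had no entry. The CHR core TTTGAA was present, on either strand, in 30 of the 41 promoters (73.2%), against 17.9% of 32851 promoters of the same length. CCAAT was present in 31 (75.6%), against 37.4%, and both motifs in 27 (65.9%), against 6.95%. The E2F motifs TTCCCGC or TTGGCGC were present in 8 (19.5%), against 6.81%. Bub3, Ect2 and Prc1 each entered with overlapping windows, so the same sites counted again in these numbers. By gene, TTTGAA was present for 27 of the 38, CCAAT for 28, both for 24 and an E2F motif for 7. These are counts of letters, and neither binding nor use of a site was measured. An ATTGG that is followed by CGC counts for both CCAAT and TTGGCGC. The 150 bases before the start are shown, from 5′ to 3′ on the gene's strand, for Espl1, the only member called in fl/p30 against control, for Cdk1, Cdc20 and Mki67 as members of other roles, and for Pttg1, whose preGM difference had the opposite sign. Capitals mark TTTGAA and CCAAT on the strand shown, or their reverse complements (TTCAAA and ATTGG). The stretches are chr15:102296143-102296292 (plus strand) for Espl1, chr10:69352913-69353062 (minus) for Cdk1, chr4:118437344-118437493 (minus) for Cdc20, chr7:135716380-135716529 (minus) for Mki67 and chr11:43425982-43426131 (minus) for Pttg1.
Espl1: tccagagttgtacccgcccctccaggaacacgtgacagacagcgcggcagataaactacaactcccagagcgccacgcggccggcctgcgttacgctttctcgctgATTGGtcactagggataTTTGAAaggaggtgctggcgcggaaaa
Cdk1: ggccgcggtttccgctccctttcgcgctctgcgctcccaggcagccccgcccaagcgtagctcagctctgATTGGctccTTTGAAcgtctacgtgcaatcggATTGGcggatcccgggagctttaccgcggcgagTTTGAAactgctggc
Cdc20: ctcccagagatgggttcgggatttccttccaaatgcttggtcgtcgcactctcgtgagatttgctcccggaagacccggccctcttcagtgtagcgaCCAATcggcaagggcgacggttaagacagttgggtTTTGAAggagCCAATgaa
Mki67: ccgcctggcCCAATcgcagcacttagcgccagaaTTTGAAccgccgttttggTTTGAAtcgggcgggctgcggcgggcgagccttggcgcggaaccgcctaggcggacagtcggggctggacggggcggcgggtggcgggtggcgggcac
Pttg1: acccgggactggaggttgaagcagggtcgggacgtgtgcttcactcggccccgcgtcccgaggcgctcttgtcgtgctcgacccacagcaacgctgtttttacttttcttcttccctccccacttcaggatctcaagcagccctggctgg
In Espl1 a CCAAT box in reverse lies at -44 and TTTGAA at -27 from the start. Cdc20 has CCAAT at -53 and TTTGAA at -18. The Pttg1 stretch holds 0 matches to either motif. The windows of Birc5, Mad2l1, Nuf2, Nusap1, Ncaph and Plk4 also held neither motif. In preGM, fl/p30 minus +/+, these genes stood at -0.49, -0.37, -0.56, -0.19, -0.73 and -0.23 in that order. Cenpa, with both motifs, stood at 0.01. A link between the motifs and the direction of the differences was not tested.

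Array medians lay between 6.03 and 6.23 on the log2 scale, and all 45 members had a mean over the arrays above the median of all values (6.12). The lowest was Espl1 at 7.04. The sort was checked on its own markers: Fcgr3, an Fc gamma receptor gene like that of the FcgRII gate, averaged 6.32 in preGM +/+ and 6.95 in preGM fl/p30, against 9.30 in GMP fl/+, 9.39 in GMP fl/BRM2 and 9.30 in GMP fl/p30, and Kit averaged between 9.79 and 10.37 in every group. Fcgr2b averaged 7.18 in preGM +/+, 6.61 in preGM fl/p30 and 8.66 in GMP fl/+, but 7.62 in GMP fl/BRM2 and 7.59 in GMP fl/p30. It read 7.0, 7.45 and 8.32 in GMP fl/p30, where replicates 1 and 2 lay within the preGM +/+ range of 6.77 to 7.45. Replicate 2 of GMP fl/BRM2, at 7.23, lay within that range too. Itga2b, the CD41 gene, averaged 7.01 in preGM +/+, 7.54 in preGM fl/p30, 6.90 in GMP fl/+, 7.89 in GMP fl/BRM2 and 7.95 in GMP fl/p30, and rose in the last against GMP fl/+ (1.04 ± 0.25, adjusted p = 0.0244). Slamf1, below every array median, averaged 4.12 to 4.81, and Eng 6.71 to 7.45, higher in both preGM groups. Cebpa itself averaged 8.57 in preGM +/+, 9.09 in preGM fl/p30, 8.38 in GMP fl/+, 8.64 in GMP fl/BRM2 and 9.07 in GMP fl/p30. Since its probe set reads RNA of whichever alleles remain, it does not check the deletion.

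Levels of most of the 45 genes were lower in fl/p30 progenitors than in controls, but almost all single genes missed the test. In GMP, fl/p30 minus fl/+ was below 0 for 40 of 45 members (58.1% of all genes), with a median of -0.33 (all genes -0.04). In preGM, fl/p30 minus +/+ was below 0 for 43 of 45 (44.8% of all genes), with a median of -0.42 (all genes 0.03). In limma, with Benjamini-Hochberg adjustment over all 19937 genes, 1 member was called lower in each population, Espl1, and 0 higher. The share of all genes called was 6.06% in GMP (4.69% higher, 1.37% lower) and 1.68% in preGM (0.647% higher, 1.03% lower). Without replicate 3 of GMP fl/p30, 7 members were called lower in GMP (Espl1, Aurkb, Anln, Bub1, Kif23, Ncapg and Mki67), without replicate 1 of GMP fl/+ 2 were (Espl1 and Mki67), and without replicate 2 or 3 of GMP fl/+ or replicate 1 of GMP fl/p30 0 were. Of all 19937 genes, 1534, 3078, 702, 743 and 537 were called in those fits in that order, in either direction, against 1209 with all arrays. At an unadjusted p under 0.05, 0 members were higher and 15 lower in GMP (11.8% and 8.18% of all genes), and 1 was higher (Pttg1) and 15 lower in preGM (6.69% and 7.33%). All 3 fl/p30 arrays lay below all 3 control arrays for 11 members in GMP (8.27% of all genes) and for 22 in preGM (12.8%), and above them for 0 in GMP (9.16%) and 1 in preGM (12.4%). The 2 comparisons use fl/p30 arrays of the same animals and so are not independent of each other.

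**Figure D1:**
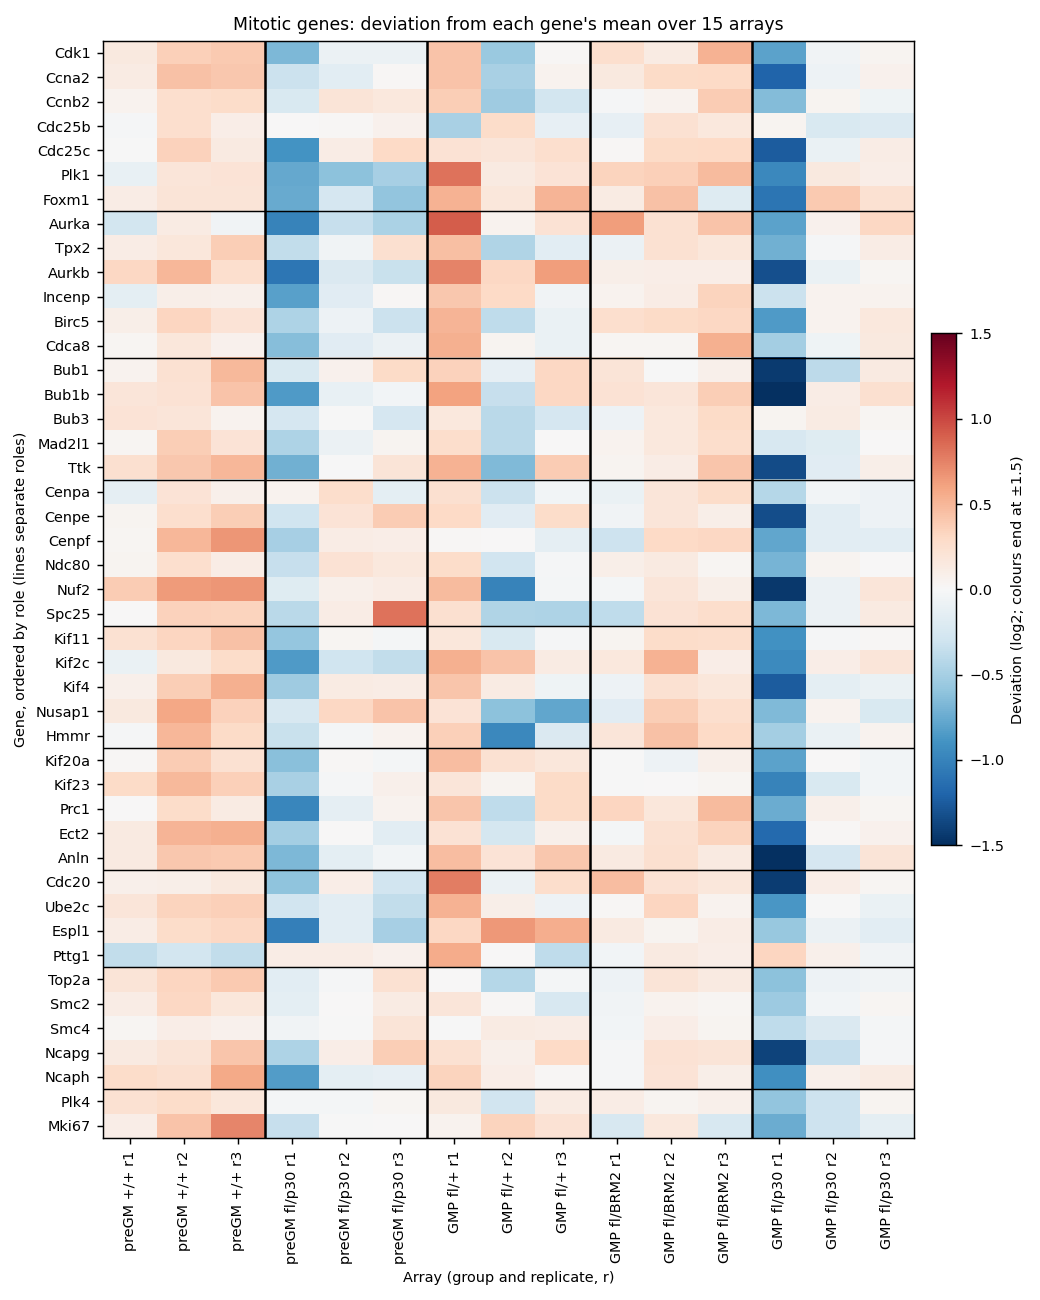
Deviation of each gene's log2 level from its mean over the 15 arrays, with the 45 genes in rows by role and the arrays in columns by group. Replicate 1 of GMP fl/p30 was the lowest of the 15 arrays for 34 of the genes.

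Among genes of mitotic entry, all 7 measured were below control in both populations, with medians of -0.40 in GMP and -0.47 in preGM, and 0 were called. Cdk1, the kinase that starts mitosis, read 10.11, 9.13 and 9.71 in GMP fl/+ and 8.89, 9.63 and 9.73 in GMP fl/p30, and 9.84, 10.04 and 10.07 in preGM +/+ against 9.01, 9.59 and 9.60 in preGM fl/p30. The GMP groups overlapped and the preGM groups did not, with differences of -0.24 ± 0.25 (SE, adjusted p = 0.675) and -0.59 ± 0.25 (adjusted p = 0.318) in limma. Its partner cyclin B2, Ccnb2, read 10.51, 10.71 and 10.73 in preGM +/+ and 10.24, 10.65 and 10.62 in preGM fl/p30, which overlapped (-0.15 ± 0.22), as did GMP fl/+ (10.83, 9.92 and 10.18) and GMP fl/p30 (9.81, 10.50 and 10.40). Plk1, the kinase that activates Cdk1 and matures centrosomes, read 8.68, 8.97 and 9.0 in preGM +/+ and 8.03, 8.18 and 8.30 in preGM fl/p30. The preGM groups stood apart, by -0.72 ± 0.25 (adjusted p = 0.202), and the 3 fl/p30 arrays lay close together. In GMP, Plk1 read 9.60, 8.93 and 8.99 in fl/+ and 7.83, 8.94 and 8.89 in fl/p30, with replicate 1 of fl/p30 far below the controls and the other fl/p30 arrays at the level of the lower controls (-0.62 ± 0.25, adjusted p = 0.167). Foxm1, the factor that drives late cell cycle transcription, showed the same arrangement: 8.10, 8.18 and 8.17 in preGM +/+ against 7.22, 7.73 and 7.39 in preGM fl/p30 (-0.70 ± 0.30, adjusted p = 0.306), but 8.50, 8.15 and 8.49 in GMP fl/+ against 6.88, 8.37 and 8.21 in GMP fl/p30 (-0.56 ± 0.30, adjusted p = 0.319). Ccna2, encoding cyclin A2, was 0.40 lower in GMP and 0.47 lower in preGM. Of the phosphatases that activate Cdk1, Cdc25c differed by -0.62 in GMP and -0.32 in preGM, and Cdc25b by -0.02 and -0.08.

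All 6 genes of the Aurora kinases and the chromosomal passenger complex were below control in both populations, with 0 called. Aurkb, the Aurora B kinase that corrects faulty attachments, had the largest negative difference of the 45 members in both. It read 9.93, 9.50 and 9.81 in GMP fl/+ and 7.86, 9.09 and 9.21 in GMP fl/p30, and 9.49, 9.69 and 9.43 in preGM +/+ against 8.10, 8.97 and 8.85 in preGM fl/p30. The groups did not overlap in either population. The differences were -1.03 ± 0.29 in GMP (2.04-fold, adjusted p = 0.0521) and -0.89 ± 0.29 in preGM (1.86-fold, adjusted p = 0.173), neither past the threshold of 0.05. Aurka, the centrosomal Aurora A kinase, read 10.39, 9.53 and 9.70 in GMP fl/+ and 8.68, 9.55 and 9.79 in GMP fl/p30, with overlap, and 9.20, 9.60 and 9.43 in preGM +/+ against 8.48, 9.14 and 9.01 in preGM fl/p30, without. Its activator Tpx2 differed by -0.16 and -0.28. The passenger subunits Incenp, Birc5 (survivin) and Cdca8 (borealin) differed by between -0.23 and -0.30 in GMP and between -0.32 and -0.49 in preGM.

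Of the 5 spindle checkpoint genes, 4 in GMP and 5 in preGM were below control. Bub1b, which encodes the checkpoint protein BubR1, read 10.03, 9.08 and 9.73 in GMP fl/+ and 7.92, 9.53 and 9.66 in GMP fl/p30, and 9.61, 9.64 and 9.85 in preGM +/+ against 8.58, 9.31 and 9.38 in preGM fl/p30. The single low value of GMP fl/p30 was the lowest of its 15 arrays. Bub1, the kinase that recruits the other checkpoint proteins, differed by -0.74 ± 0.29 in GMP (adjusted p = 0.162) and -0.21 ± 0.29 in preGM. Ttk, the Mps1 kinase at the head of the checkpoint, differed by -0.55 and -0.56, and Mad2l1, the Mad2 inhibitor of Cdc20, by -0.10 and -0.37. Bub3, which binds Bub1 and BubR1 to kinetochores, was the member with the highest difference in GMP (0.23 ± 0.14, adjusted p = 0.396), while in preGM it was at -0.32 ± 0.14 (adjusted p = 0.322).

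Kinetochore genes had the smallest median difference in preGM of the roles, -0.13 over 6 genes, and -0.24 in GMP, with 5 of 6 below 0 in each. Cenpa, the histone variant that marks centromeres, stood at -0.14 and 0.01, and Spc25 of the Ndc80 complex at 0.02 and -0.05. Its partners Ndc80 and Nuf2 stood at -0.20 and -0.27 in GMP and at -0.12 and -0.56 in preGM. Cenpe, the kinesin that brings chromosomes to the spindle equator, stood at -0.66 ± 0.27 in GMP (adjusted p = 0.186) and -0.13 ± 0.27 in preGM, and Cenpf, a late kinetochore protein, at -0.33 and -0.49.

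For spindle motors and microtubule proteins, 3 of 5 were below control in GMP and 5 of 5 in preGM. Kif11, the motor that separates spindle poles, stood at -0.28 and -0.52. Kif2c, which shortens microtubules at centromeres, stood at -0.59 and -0.61, and the chromokinesin Kif4 at -0.66 and -0.42. Nusap1, which bundles spindle microtubules, and Hmmr, a spindle pole protein, stood at 0.11 and 0.09 in GMP and at -0.19 and -0.36 in preGM. In the midzone and cytokinesis role, all 5 genes were below control in both populations (medians -0.57 and -0.52). Anln, the anillin scaffold of the cleavage furrow, read 9.17, 8.91 and 9.11 in GMP fl/+ and 7.10, 8.45 and 8.90 in GMP fl/p30. Its fl/p30 arrays spanned a wide range, just short of the controls at the top (-0.91 ± 0.32, adjusted p = 0.12). The midzone kinesins Kif23 and Kif20a stood at -0.59 and -0.57 in GMP and at -0.52 and -0.42 in preGM. Prc1, which bundles midzone microtubules, stood at -0.31 and -0.48, and Ect2, the exchange factor that activates RhoA at the furrow, at -0.37 and -0.62.

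The anaphase genes held the called member. Espl1 encodes separase, the protease that cleaves cohesin at anaphase. It read 7.36, 7.69 and 7.59 in GMP fl/+ and 6.47, 6.95 and 6.89 in GMP fl/p30. In preGM it read 7.16, 7.32 and 7.35 in +/+ and 6.02, 6.89 and 6.55 in fl/p30. All fl/p30 arrays lay below all control arrays of their population. Espl1 fell by 0.78 ± 0.19 in GMP (SE, 1.72-fold, adjusted p = 0.0234) and by 0.79 ± 0.19 in preGM (1.73-fold, adjusted p = 0.0467) in limma. The call in GMP was lost in a fit of only the 6 arrays compared (adjusted p = 0.116). Both calls also rested on single arrays: in GMP the adjusted p was 0.0845 without replicate 2 of fl/+, 0.073 without replicate 3 of fl/+ and 0.115 without replicate 1 of fl/p30, and in preGM it was 0.114, 0.168 and 0.161 without each +/+ array in turn, 0.173 without replicate 1 of fl/p30 and 0.122 without replicate 3. An intensity trend in the prior moved the preGM value to 0.0503. Its reading of 6.02 also lies below every array median. Pttg1 encodes securin, the inhibitor of separase, and stood opposite in preGM: 9.26, 9.35 and 9.25 in +/+ against 9.74, 9.74 and 9.69 in fl/p30. It was the only member with fl/p30 arrays above all controls there, by 0.44 ± 0.18 (adjusted p = 0.287), and stood at 0.06 ± 0.18 in GMP. Cdc20, the activator of the anaphase promoting complex, read 9.90, 9.04 and 9.38 in GMP fl/+ and 7.70, 9.22 and 9.15 in GMP fl/p30, where 1 array lay far below the rest (-0.75 ± 0.33, adjusted p = 0.215). In preGM it read 9.20, 9.21 and 9.28 against 8.52, 9.23 and 8.84, with overlap. Ube2c, the ubiquitin-conjugating enzyme of that complex, stood at -0.51 in GMP and -0.56 in preGM.

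**Figure D2:**
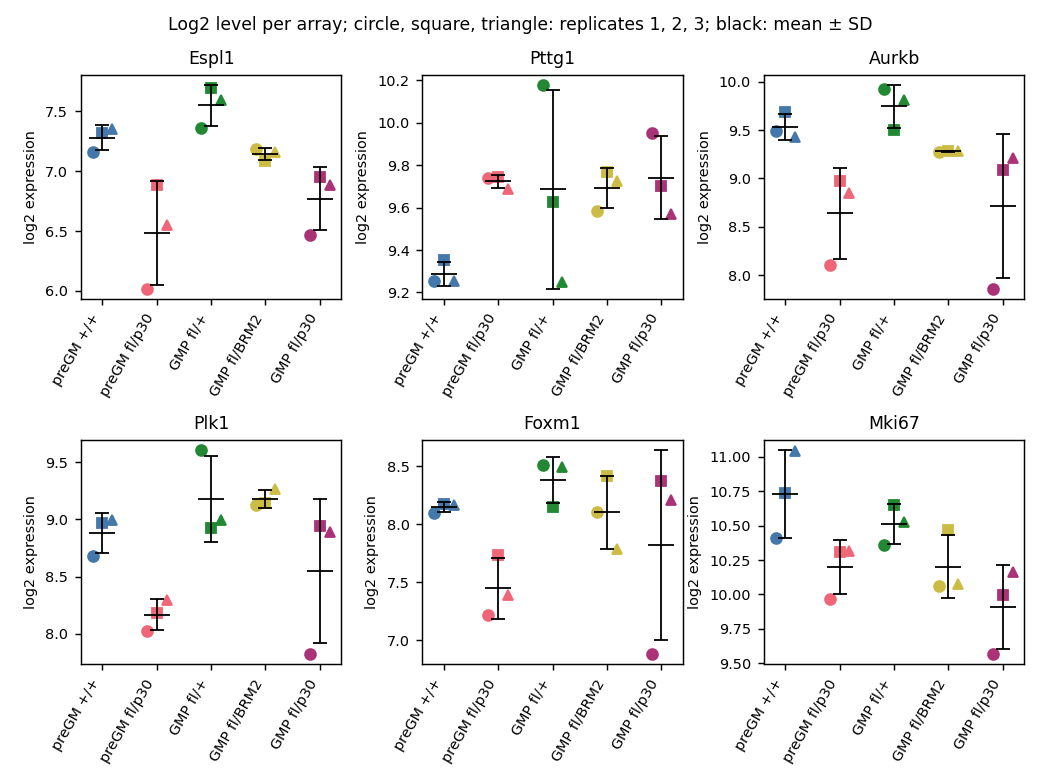
Log2 level on each array for members described by their values on single arrays, with marker shapes for replicates 1, 2 and 3 and black marks for the mean ± SD of 3 arrays. Espl1 in fl/p30 lay below its control on every array in both populations, while Plk1 in GMP fl/p30 had 1 low array at 7.83.

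All 5 chromosome structure genes were below control in both populations, with medians of -0.29 in GMP and -0.25 in preGM. Top2a, topoisomerase II, which untangles sister chromatids, read 11.44, 11.002 and 11.40 in GMP fl/+ and 10.82, 11.36 and 11.38 in GMP fl/p30, and 11.63, 11.76 and 11.83 in preGM +/+ against 11.27, 11.42 and 11.67 in preGM fl/p30, with overlap in both. Its other probe set, with a mean of 4.81 below every array median, stood at -0.88 in GMP where the brighter one stood at -0.09. Among condensin subunits, Ncapg stood at -0.78 and -0.25, Ncaph at -0.39 and -0.73, Smc2 at -0.17 and -0.20, and Smc4 at -0.29 and -0.02. Plk4, the kinase of centriole duplication, stood at -0.28 and -0.23. Mki67, which encodes the Ki-67 antigen of cycling cells, read 10.36, 10.65 and 10.53 in GMP fl/+ and 9.57, 9.999 and 10.16 in GMP fl/p30, and 10.41, 10.74 and 11.04 in preGM +/+ against 9.97, 10.31 and 10.32 in preGM fl/p30. The groups stood apart in both populations, by -0.60 ± 0.19 (adjusted p = 0.0758) and -0.53 ± 0.19 (adjusted p = 0.208).

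The differences were larger with 1 animal than without it. The first fl/p30 animal had the lowest level of its group for 42 of 45 members in GMP (32% of all genes) and 40 of 45 in preGM (34.1%), and in both populations for 39 (86.7%, against 16.3% of all genes). Its median gap below the mean of the other 2 animals was 0.80 in GMP and 0.51 in preGM, where all genes had -0.06 and -0.03. The exceptions were Cdc25b, Bub3, Cenpa, Ube2c, Pttg1 and Plk4. The median deviation of the members from their own means was -0.80, -0.05 and 0.03 on the arrays of GMP fl/p30 and -0.47, -0.01 and 0.03 on those of preGM fl/p30, against 0.36, -0.09 and 0.02 in GMP fl/+ and 0.09, 0.28 and 0.29 in preGM +/+. The controls of GMP were also spread: replicate 1 was the highest of its group for 38 members and replicate 2 the lowest for 29. In preGM +/+, replicate 1 was likewise the lowest of its group for 40 members (31.9% of all genes). In GMP fl/BRM2, replicate 1 was the lowest for 31 (34.3%). The median SD over the members was 0.46 in GMP fl/p30 and 0.30 in preGM fl/p30, against 0.16 and 0.15 for all genes in those groups. It was 0.28 in GMP fl/+ and 0.14 in both preGM +/+ and GMP fl/BRM2.

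**Figure D3:**
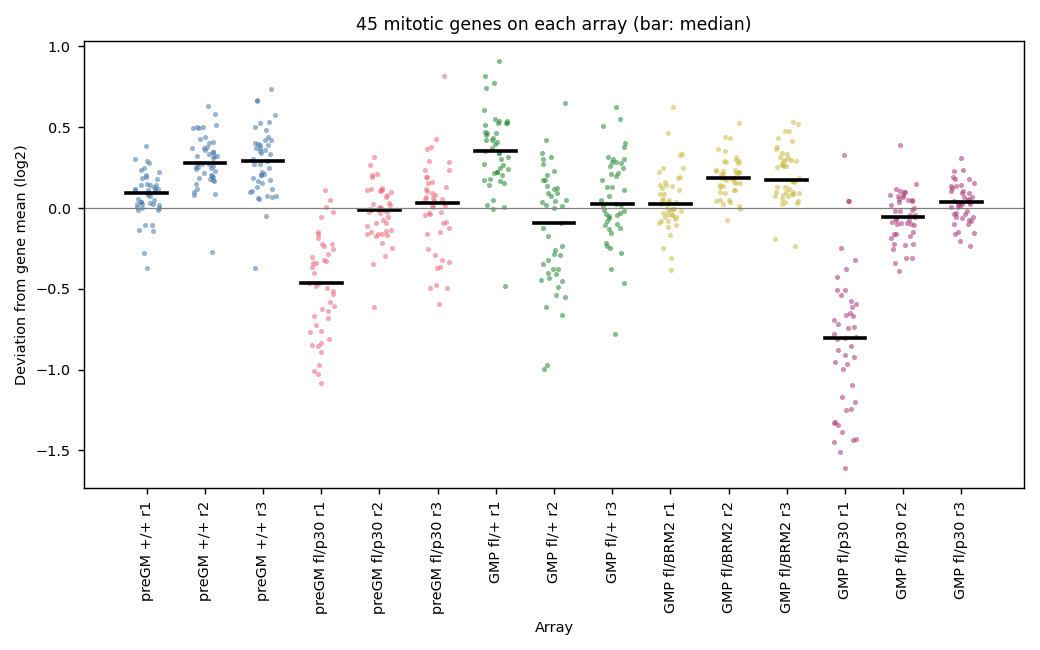
Deviation of the 45 genes from their own means (log2, vertical axis) on each of the 15 arrays, with 1 point per gene and a bar at the median. The medians lay at -0.80 and -0.47 on the 2 arrays of the first fl/p30 animal and between -0.09 and 0.36 on the others.

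Without the arrays of that animal, the median difference moved to -0.10 in GMP (all genes -0.06) with 31 of 45 members below 0 (60.6% of all genes), and to -0.23 in preGM (all genes 0.01) with 37 of 45 below 0 (48.2%). The fl/p30 arrays then lay below all controls for 11 members in GMP (19% of all genes, for 2 arrays against 3) and for 22 in preGM (17.3%). In GMP, Espl1 (-0.63 ± 0.13, adjusted p = 0.0273) and Aurkb (-0.60 ± 0.13, adjusted p = 0.0349) were called lower, among 0.356% of all genes, and in preGM 0 members were called, with Espl1 at -0.56 ± 0.13 (adjusted p = 0.0772). Some other lists also moved with this animal, and others did not. The mean deviation of 39 genes of DNA replication and S phase was -0.57 on its GMP array (-0.05 and 0.13 on the others) and -0.41 on its preGM array (-0.01 and -0.08). In GMP, 8 markers of granulocyte-macrophage progenitors averaged -1.09, -0.10 and 0.74 over the 3 animals, 10 secondary granule genes -0.85, -0.63 and 0.46, and 9 erythroid genes 0.59, 0.16 and -0.05, where GMP fl/+ had 0.73 to 1.12, 0.58 to 1.30 and -0.96 to -0.78. Elane, a defining GMP marker, read 6.47, 8.98 and 10.85 in GMP fl/p30. The same lists averaged, in preGM fl/p30, -0.96, -0.87 and -1.17, then -1.09, -1.11 and -0.87, and 0.32, 0.23 and 0.35, where preGM +/+ had 0.13 to 0.48, 0.18 to 1.21 and -0.18 to 0.06. In GMP fl/p30 against fl/+, 4.69% of all genes were called higher and 1.37% lower. Of the 10 secondary granule genes, 5 were called lower there (S100a8, S100a9, Ngp, Camp and Cd177). Of the 8 markers of granulocyte-macrophage progenitors, Irf8 and Csf3r were called lower and Cebpa higher. Of the 10 T and NK genes, 5 were called higher in GMP fl/p30 than in fl/+ (Ccl5, Lat, Cd7, Cd3g and Klrd1). They averaged 0.49, 0.37 and 0.44 over the 3 animals in GMP, against -0.46 to -0.30 in GMP fl/+, and 0.21 to 0.22 in preGM fl/p30, against -0.30 to -0.14 in preGM +/+. Of 7 megakaryocyte genes 3 were called higher in GMP fl/p30 (Nfe2, Itga2b and Itgb3), with averages of 0.33, 0.31 and -0.02 against -0.55 to -0.42. Of the 9 erythroid genes, 4 were called higher there (Car1, Car2, Icam4 and Gata1). B lymphoid genes averaged 2.09 in replicate 3 of preGM +/+ and 0.27 and 0.33 in its other replicates. Of the 9 B lymphoid genes, 2 were called higher in GMP fl/p30 than in fl/+ (Dntt and Il7r). In GMP the 9 genes averaged -0.46, -0.24 and -0.31 over the 3 fl/p30 animals, against -0.80 to -0.67 in fl/+. The part of cell composition in the member differences was not tested.

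**Figure D4:**
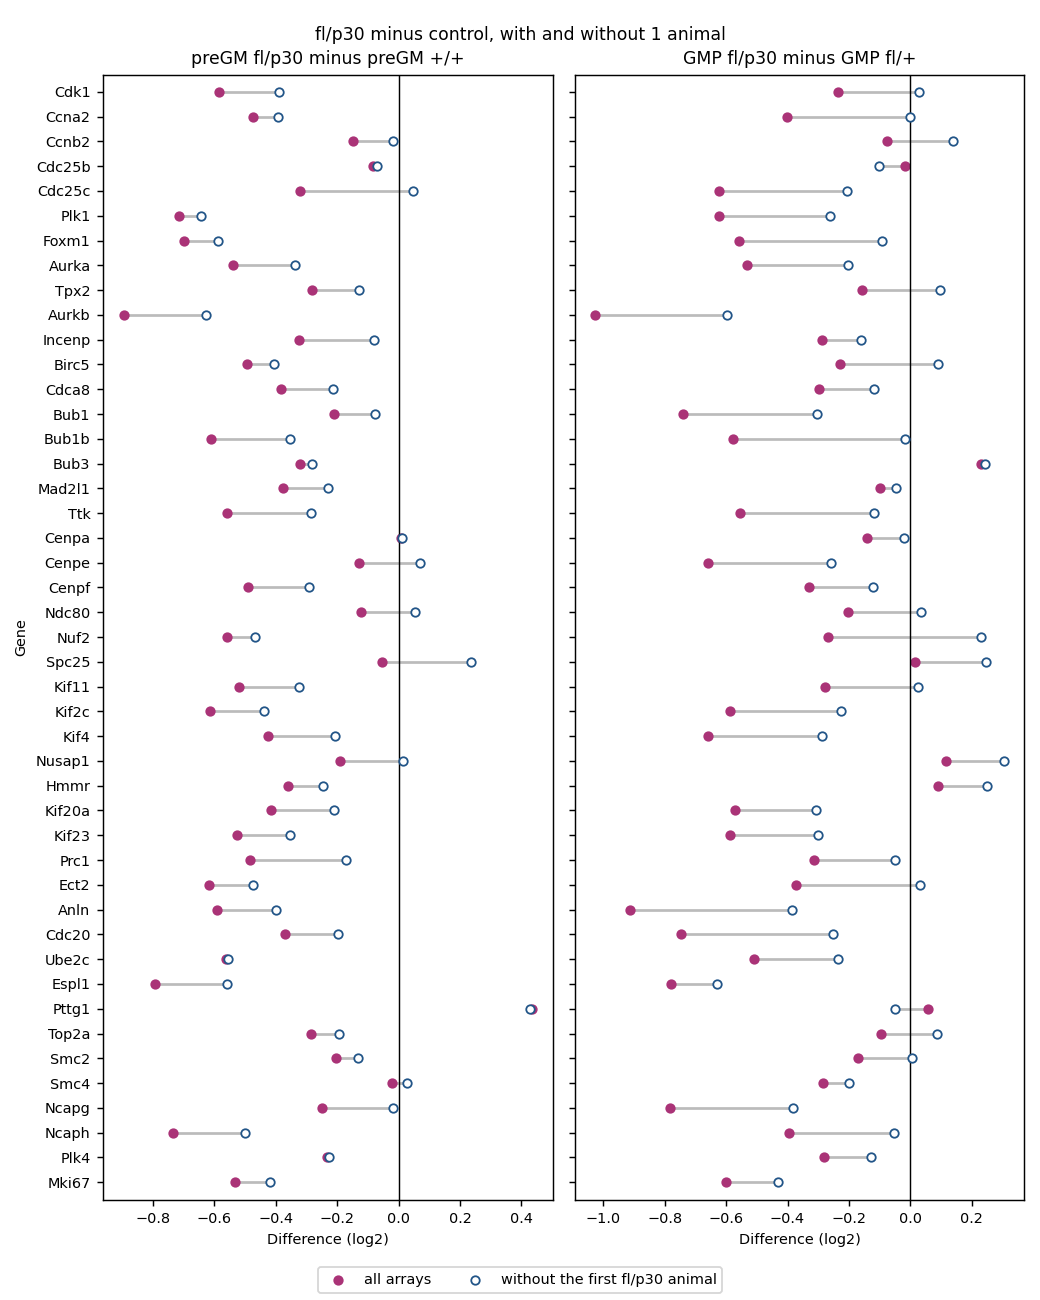
Difference in log2 level, fl/p30 minus control, for each gene in preGM (left) and GMP (right), with all arrays (filled) and without the arrays of the first fl/p30 animal (open). Most open points lie nearer to 0, and 14 genes of 45 lie above 0 in GMP without that animal, where 5 did with it.

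In GMP carrying BRM2, the members did not share a direction: 18 of 45 were below fl/+ (54.5% of all genes), the median was 0.04 (all genes -0.02), and limma called 0 (2.53% of all genes, 1.89% higher and 0.642% lower). At an unadjusted p under 0.05, 1 was higher, Hmmr, and 1 lower, Espl1 (8.37% and 6.61% of all genes). All BRM2 arrays lay below all fl/+ arrays for 4 members (8.51% of all genes), Aurkb, Espl1, Kif20a and Kif23, and above them for 0 (6.74%). The largest differences were those of Hmmr, which read 9.06, 9.31 and 9.17 against 9.23, 7.91 and 8.66 in fl/+ (0.58 ± 0.26, adjusted p = 0.304), Nusap1, which read 9.70, 10.24 and 10.12 against 10.07, 9.26 and 9.09 (0.55 ± 0.26, adjusted p = 0.345), and Aurkb, which read 9.27, 9.28 and 9.28 against 9.93, 9.50 and 9.81 (-0.47 ± 0.29, adjusted p = 0.514). For Hmmr and Nusap1 the control arrays were spread more widely than the BRM2 arrays, which lay within or just above the control range. Without replicate 1 of fl/+, 3 members were called higher in BRM2, Hmmr, Nusap1 and Bub3. In that fit 2218 of all 19937 genes were called in either direction, against 505 with all arrays. Espl1 read 7.18, 7.09 and 7.16 in BRM2, below each fl/+ array and above each GMP fl/p30 array, and differed from fl/+ by -0.41 ± 0.19 (adjusted p = 0.319). Markers of other cells also differed in GMP fl/BRM2: 5 of 9 erythroid genes were called higher than in fl/+ (Car1, Car2, Icam4, Gata1 and Ermap; averages of -0.04, 0.76 and 0.53 over its arrays, against -0.96 to -0.78), and 3 of 7 megakaryocyte genes (Nfe2, Gp5 and Itgb3; 0.02, 0.38 and 0.25 against -0.55 to -0.42). Dntt, of the 9 B lymphoid genes, and Lat, of the 10 T and NK genes, were also called higher. The 8 GMP markers averaged 0.40, -0.78 and 0.12, against 0.73 to 1.12. Irf8 and Csf3r among them, and Camp of the 10 secondary granule genes, were called lower. Of all genes 1.89% were called higher and 0.642% lower. The part of cell composition in the member differences was not tested.

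GMP of the 2 mutant genotypes were compared directly. The members stood lower in fl/p30 than in fl/BRM2 for 44 of 45 (52.3% of all genes), with a median of -0.46 (all genes -0.01), and all fl/p30 arrays lay below all BRM2 arrays for 16 (3.66% of all genes) and above them for 0 (4.67%). Limma called 0 members and 1 gene of 19937 (0.00502%), and at an unadjusted p under 0.05 14 members were lower (1.12% of all genes) and 0 higher (2.33%). The largest differences were in Anln (8.85, 8.94 and 8.84 in BRM2, -0.72 ± 0.32), Cdc20 (9.59, 9.34 and 9.29, -0.71 ± 0.33) and Ncapg (9.96, 10.19 and 10.16 in BRM2, and 8.59, 9.63 and 9.95 in fl/p30, -0.71 ± 0.27), all with an adjusted p of 1. Without the first fl/p30 animal the median was -0.18, with 43 of 45 below 0 (54.6% of all genes) and 17 apart (15.6%). This comparison shares its fl/p30 arrays with the comparison against fl/+.

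Between populations, differences were small next to the spread. In fl/p30, GMP minus preGM was below 0 for 30 of 45 members (44.4% of all genes), with a median of -0.16 (all genes 0.03) and 0 called (0.642% of all genes, 0.356% higher and 0.286% lower). At an unadjusted p under 0.05, 0 were higher and 2 lower, Cenpe and Smc4 (7.19% and 5.23% of all genes). All GMP arrays lay above all preGM arrays for Bub3 alone (9.44% of all genes) and below them for 0 (7.72%). Cenpe read 9.21, 9.71 and 9.89 in preGM and 8.18, 9.35 and 9.43 in GMP of the same 3 animals in that order, lower in each (-0.62 ± 0.27, adjusted p = 0.37). Bub1 read 9.50, 9.79 and 10.01 in preGM and 8.29, 9.33 and 9.86 in GMP (-0.61 ± 0.29, adjusted p = 0.416), and Ncapg 9.51, 10.07 and 10.34 in preGM (-0.58 ± 0.27, adjusted p = 0.407), again lower in each animal. Without the first fl/p30 animal the median was -0.05, and without its GMP array alone it turned to 0.14.

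In the controls, GMP fl/+ minus preGM +/+ was below 0 for 31 of 45 members (39.1% of all genes), with a median of -0.17 (all genes 0.08) and 0 called, where 10.2% of all genes were (4.19% higher, 6.02% lower). At an unadjusted p under 0.05, 1 was higher, Pttg1, and 3 lower, Nusap1, Top2a and Bub3 (17.3% and 14.4% of all genes). All GMP arrays lay below all preGM arrays for Cenpf, Kif11, Kif23, Top2a and Plk4 (5 of 45, 12.9% of all genes), and above them for Espl1 alone (21.1%). The largest differences were those of Nusap1 (10.02, 10.45 and 10.21 in preGM +/+, -0.75 ± 0.26, adjusted p = 0.0755), Nuf2 (9.96, 10.21 and 10.23 in preGM +/+ against 10.05, 8.58 and 9.55, -0.74 ± 0.37, adjusted p = 0.18) and Hmmr (8.86, 9.38 and 9.17 in preGM +/+, -0.54 ± 0.26, adjusted p = 0.17). In all of them replicate 1 of GMP fl/+ lay within the preGM range and both of the others lay below it. Without that array 5 members were called lower in GMP: Nusap1, Hmmr, Bub3, Ccnb2 and Top2a. In that fit 4686 of all 19937 genes were called in either direction, against 2036 with all arrays.

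The fl/p30 difference was then compared between the populations as an interaction. Its control is +/+ in preGM and fl/+ in GMP, so stage and control genotype cannot be told apart in it. The interaction called 0 members (0.00502% of all genes), with a median of 0.04 over the members (all genes -0.05). Leaving out single arrays moved that median between -0.14 (without replicate 1 of preGM fl/p30) and 0.30 (without replicate 1 of GMP fl/p30), so its sign rested on single arrays. At an unadjusted p under 0.05 there was 1 member higher (7.74% of all genes), Bub3, whose fl/p30 difference was 0.55 ± 0.20 higher in GMP than in preGM (adjusted p = 0.281), and 0 lower (5.38%). Without replicate 1 of GMP fl/+, Bub3 was called (0.71, adjusted p = 0.0253). Next in size were Ncapg (-0.53 ± 0.39, adjusted p = 0.546) and Cenpe (-0.53 ± 0.39, adjusted p = 0.544). For Espl1 it was 0.01 ± 0.26 and for Aurkb -0.13 ± 0.41.

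Across all 5 groups, the moderated F test of limma called 3 members (11.3% of all genes): Espl1 (adjusted p = 0.00937), Plk1 (0.0429) and Mki67 (0.0499). The lowest of the 5 group means was in GMP fl/p30 for 27 members, in preGM fl/p30 for 14, in GMP fl/+ for 3 and in preGM +/+ for 1. The highest was in preGM +/+ for 27, GMP fl/+ for 10, GMP fl/BRM2 for 7 and GMP fl/p30 for 1, which was Pttg1. The ordered means of Espl1 were 7.55 ± 0.17 in GMP fl/+, 7.28 ± 0.10 in preGM +/+, 7.14 ± 0.05 in GMP fl/BRM2, 6.77 ± 0.26 in GMP fl/p30 and 6.48 ± 0.44 in preGM fl/p30 (SD, n = 3). The fl/p30 groups overlapped each other, and their arrays lay below those of the other groups. Leaving out single arrays moved the number called by F to between 1 (Espl1, without replicate 2 of preGM +/+ among others) and 9 (without replicate 3 of GMP fl/p30). Of all genes, F called 1525 and 2395 in those fits, against 2248 with all arrays.

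Other genes of the pathway were taken from 6 lists that hold no members: further kinetochore, spindle and kinase genes, cohesin and condensin, the anaphase promoting complex, and the MuvB complex with B-Myb and pocket proteins, with 125 genes measured. Limma called 1 higher and 4 lower in GMP fl/p30 minus fl/+ (4% of the 125, against 6.06% of all genes; median -0.26, 93 below 0), 0 higher and 1 lower in preGM fl/p30 minus +/+ (0.8% against 1.68%; median -0.31, 107 below 0), and 1 higher and 0 lower in GMP fl/BRM2 minus fl/+ (0.8% against 2.53%). With both directions pooled, the lists thus held a smaller share of called genes than all genes did. By direction in GMP fl/p30, the share called lower was larger than that of all genes (4 of 125, against 1.37%). The share called higher was smaller (1 of 125, against 4.69%). In GMP fl/p30 the called genes included known regulators of late cell cycle transcription. Mybl2, which encodes B-Myb, read 9.18, 9.71 and 9.36 in GMP fl/+ and 7.52, 8.32 and 8.68 in GMP fl/p30, and fell by 1.24 ± 0.27 (adjusted p = 0.0152). Rbl2, which encodes the pocket protein p130 of the DREAM complex, read 8.39, 7.92 and 8.07 in GMP fl/+, 8.82, 9.19 and 8.96 in GMP fl/BRM2 and 9.63, 9.26 and 9.04 in GMP fl/p30. It rose by 1.18 ± 0.16 in fl/p30 (adjusted p = 0.000541) and by 0.86 ± 0.16 in BRM2 (adjusted p = 0.00931). Both mutant groups lay above all controls. E2f4, a repressive E2F factor of the same complex, fell by 0.72 ± 0.19 (adjusted p = 0.0349), Pkmyt1, the Myt1 kinase that holds Cdk1 inactive, by 0.84 ± 0.18 (adjusted p = 0.0132), and Troap, a spindle protein, by 0.76 ± 0.19 (adjusted p = 0.027). In preGM fl/p30, Racgap1, the partner of Kif23 in the centralspindlin complex, fell by 0.94 ± 0.22 (adjusted p = 0.0431). It read 8.70, 8.73 and 8.83 in +/+ and 7.50, 8.19 and 7.74 in fl/p30. Some of these calls rested on single arrays. Without replicate 2 of GMP fl/+ the adjusted p was 0.064 for Mybl2, 0.0728 for E2f4, 0.0533 for Pkmyt1 and 0.113 for Troap, and without replicate 1 of GMP fl/p30 it was 0.067, 0.139, 0.0698 and 0.106. The call was also lost for Troap without replicate 3 of GMP fl/+ or replicate 2 of GMP fl/p30 (0.1 and 0.0702), for E2f4 without the latter (0.0813) and for Pkmyt1 without the former (0.0506). For Racgap1 it was between 0.131 and 0.204 without each +/+ array or replicate 1 or 3 of preGM fl/p30. Rbl2 in fl/p30 remained called without each array in turn, and Rbl2 in BRM2 was not called without replicate 2 of BRM2 (0.0709). In a fit of only the 6 arrays compared, none of the GMP calls of this paragraph held: the adjusted p was 0.052 for Rbl2, 0.149 for Mybl2, 0.206 for Troap, 0.215 for Pkmyt1 and 0.3 for E2f4 in fl/p30, and 0.0858 for Rbl2 in BRM2. Racgap1 was called in that fit (0.0102), but not with arrays centred on their medians (0.0614) or with the replicate block (0.0667). E2f4 was not called with centred arrays either (0.0511).

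Of 6 cyclin-dependent kinase inhibitors, Cdkn2d, the INK4 inhibitor p19, rose in GMP fl/p30 (0.66 ± 0.15, adjusted p = 0.0176) and in GMP fl/BRM2 (0.64 ± 0.15, adjusted p = 0.0347), and 0 fell in either. Of all genes, 4.69% were called higher in fl/p30 and 1.89% in BRM2. Cdkn2d read 6.68, 6.65 and 6.28 in GMP fl/+, 7.06, 7.26 and 7.21 in BRM2 and 7.38, 7.30 and 6.91 in fl/p30. The call in fl/p30 was lost without replicate 3 of GMP fl/+ or replicate 1 or 2 of fl/p30 (adjusted p of 0.0792, 0.0888 and 0.0768). The call in BRM2 was lost without replicate 2 or 3 of GMP fl/+ (0.0604 and 0.13) or replicate 2 or 3 of BRM2 (0.184 and 0.14). Both were lost in a fit of only the 6 arrays compared (0.188 and 0.126), and that in BRM2 also with arrays centred on their medians (0.0562). In the controls, GMP against preGM, 8 of the 125 pathway genes were lower and 1 higher (7.2%, against 10.2% of all genes, 6.02% lower and 4.19% higher). The cohesin genes Pds5b (-0.79 ± 0.14, adjusted p = 0.00514), Stag2, Stag1 and Rad21 fell, as did Cdc27 (-0.66 ± 0.11, adjusted p = 0.00368) and Anapc10 of the anaphase promoting complex, Arpp19, a mitotic phosphatase inhibitor, and Rbl2 (-0.55 ± 0.16, adjusted p = 0.0427), while Mybl2 rose (1.16 ± 0.27, adjusted p = 0.0188). The inhibitor Cdkn2c also fell there (-0.80 ± 0.16, adjusted p = 0.00751). Pds5b, Cdc27 and Cdkn2c remained called without each array in turn, but in a fit of only the 6 arrays compared Cdkn2c was not (0.0674), nor were Stag2, Stag1, Rad21, Anapc10, Arpp19 and Rbl2 (0.0595 to 0.124). Stag2, Rad21, Anapc10, Arpp19 and Rbl2 were not called without any 1 of the +/+ arrays or without replicate 2 or 3 of fl/+ (adjusted p between 0.0561 and 0.173). Stag1 was not called without replicate 1 or 3 of +/+ or replicate 2 of fl/+ (0.0598 to 0.0715), and Mybl2 without each +/+ array or replicate 2 of fl/+ (0.0542 to 0.0793). Of 39 genes of DNA replication and S phase, Cdc45 (-1.19 ± 0.32, adjusted p = 0.0403) and Tk1 (-1.03 ± 0.25, adjusted p = 0.0265) fell in GMP fl/p30, and 0 rose. They were 5.13% of the list, where 1.37% of all genes were called lower and 4.69% higher. In that comparison 30 of 39 were below 0 (58.1% of all genes), with a median of -0.22. In preGM fl/p30 0 were called (1.68% of all genes), 39 of 39 were below 0 (44.8% of all genes) and the median was -0.50. Both GMP calls were lost in a fit of only the 6 arrays compared (0.292 and 0.149), and without either fl/+ array 2 or 3, or without fl/p30 array 1 or 2 (adjusted p between 0.0612 and 0.128). With arrays centred on their medians Cdc45 was not called (0.0645). In the controls, 5 of the 39 fell in GMP fl/+ against preGM +/+ (12.8%, where 6.02% of all genes were called lower), and 0 rose. They were Pola1 (-0.93 ± 0.21, adjusted p = 0.0159), Rrm1 (-0.77 ± 0.21, 0.0348), Prim2 (-0.69 ± 0.20, 0.0431), Mcm4 (-0.63 ± 0.17, 0.0329) and Mcm6 (-0.50 ± 0.14, 0.0382). Rrm1, Prim2 and Mcm4 were not called without any 1 of the +/+ arrays or without replicate 2 or 3 of fl/+ (0.0653 to 0.176), Pola1 not without replicate 2 or 3 of +/+ or replicate 2 of fl/+ (0.0513 to 0.063), and these 4 not in a fit of the 6 arrays (0.0589 to 0.139).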

How the data were processed

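The values analysed are log2 expression values that the authors deposited, 15 columns of 34760 probe sets. Per the submitters' processing notes they were made with affy by RMA (background correction, quantile normalization between arrays, probe summary); no version of either is given. Per the labels, 20 ng of total RNA was amplified for each array. Arrays have no read depth, and 3 per group limit the precision.

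Probe sets with 1 symbol in the platform annotation (21640; 1321 had several and 11799 none) gave 19937 genes. With limma 3.58.1 (R 4.3.3), 5 group means were fitted over all 15 arrays with lmFit and eBayes, for 7 comparisons and an F test, and p-values were adjusted over all genes (Benjamini-Hochberg); an adjusted p under 0.05 is called. The procedure was tested on simulated data. The members and all lists were chosen with earlier results of these data known. Named genes are the members, and of the other pathway lists up to 4 called genes a list and comparison. Per-array values are given for 10 members picked by name (Cdk1, Ccnb2, Aurka, Aurkb, Plk1, Bub1b, Cdc20, Top2a, Mki67, Foxm1), for called members, and for the 3 largest differences where none was called; those of Pttg1, and the 5 promoters shown, were picked after their values were seen.

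The fl/p30 replicate numbers pair arrays of the same animals per the labels. Deviations from group means correlated at 0.334, 0.32 and 0.116 within animals. Between different animals the correlations ran from -0.308 to 0.154, above the lowest value within animals. Deviations from a mean of 3 arrays sum to 0, so these values are not independent. Other groups share only a number. Alternatives were other fits, scalings and filters, and leaving out arrays; those that leave out the first fl/p30 animal, and the animal blocks, were added after seeing the data.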

Additional observations from a re-analysis of the deposited data

How the results depend on the processing

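Of 1320 differences under alternatives for the 10 members picked by name, Espl1 and Pttg1, 0 changed sign with a call and 92 without; 22 passed the threshold newly and 11 no longer did. Members called lower in GMP fl/p30 minus fl/+ numbered 1 in the reported analysis, 0 with only the 6 arrays compared, 9 with array weights, 2 with dim genes left out (Espl1 and Aurkb), 2 without the first fl/p30 animal, 2 with the animal as a random block, and 3 with the replicate block over shared numbers (Espl1, Aurkb and Mki67). All genes called there, in either direction, numbered 1209 of 19937 as reported. They numbered 172, 4063, 1296 (of the 10922 kept), 508, 1193 and 1181 under the alternatives in that order. In preGM fl/p30 minus +/+, 1 was called lower as reported, 6 lower and 1 higher (Pttg1) with only the 6 arrays, 4 lower with array weights, and 0 with an intensity trend in the prior (Espl1 at 0.0503) or without the first fl/p30 animal. All genes called there numbered 334 as reported, and 1070, 1167, 309 and 189 under the alternatives in that order. With array weights, 1 was called higher in BRM2 minus fl/+ (Nusap1), 3 higher and 1 lower in GMP minus preGM of fl/p30, 2 lower in GMP minus preGM of the controls, 1 higher in the interaction (Bub3) and 20 by F. With array weights, 2187, 1948, 4660, 1991 and 7568 of all genes were called in that order. With arrays centred on their medians F called 1 member and 2000 of all genes. The replicate block, and the pairing by animal, left the calls in GMP minus preGM of fl/p30 at 0 of 45 members. The cause of these changes was not tested, except that fits on fewer arrays have fewer degrees of freedom. In the fits that follow, the number of all genes called moved too. In GMP fl/p30 minus fl/+ it was 537 without replicate 1 of fl/p30 and 3078 without replicate 1 of fl/+. Leaving out each array in turn gave, in GMP fl/p30 minus fl/+, 0 to 7 members called lower (7 without replicate 3 of fl/p30) and medians of -0.58 to -0.10; in preGM, 0 to 1 lower and -0.53 to -0.23; in fl/p30 minus BRM2, 0 called and -0.57 to -0.18, the last also without the first fl/p30 animal; in BRM2 minus fl/+, 0 to 3 higher and -0.04 to 0.22; in GMP minus preGM of fl/p30, 0 called and -0.31 to 0.14; of the controls, 0 to 5 lower, 0 to 1 higher (Pttg1) and -0.28 to -0.01; in the interaction, 0 to 1 higher and -0.14 to 0.30; and by F, 1 to 9.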
